A study of Mus musculus with 20 samples.

Results

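The genes of the claudins, the classical and related cadherins, the connexins, and the tight junction proteins occludin and ZO were described in the kidneys of C57BL/6 mice. The members were taken by gene name from the array annotation, as every name that starts with Cldn, Cdh, Gja to Gje or Tjp followed by a digit, and Ocln. They came to 67 of the 27827 gene names on the array, with 103 probes: 21 claudins, 23 cadherins, 19 connexins, and 4 genes for occludin and the ZO proteins. The 20 arrays were 4 each of 5 groups of male mice aged 8 to 12 weeks. Control mice had neither surgery nor treatment. IRI mice had both renal pedicles clamped for 45 min and were killed 6 h after reperfusion began. IRI+Hemin mice had the same surgery 24 h after an intraperitoneal dose of 25 mg/kg of Hemin, given to induce heme oxygenase. IPC+IRI mice had 15 min of ischemia as preconditioning 7 days before the same surgery, and Hemin mice had the dose of Hemin without surgery. No group had the anesthesia and incision alone, so Control and Hemin differed from the other groups in these too.

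Log2 expression is the log2 of the background-corrected signal over the 75th percentile of the array, averaged over the probes of a gene name, so that 0 lies at this percentile. A difference was called at an adjusted p below 0.05 in a limma fit of all 20 arrays, with the adjustment made over all genes tested. The labels number the kidneys of a group from 1 to 4 without saying that each came from its own mouse, and the p-values measure the spread between these samples. The arrays of a group were all on 1 slide that held no other group, so slide effects cannot be told apart from those of the groups. Only Control and IRI, among the pairs compared, were scanned on the same day. The 75th percentile had a median of 199.8 intensity units in Control and 198.9 in IRI, against 254.3 to 283.2 in the other 3 groups. The markers listed for proximal tubule, thick ascending limb, distal convoluted tubule, collecting duct, intercalated cells, podocytes and endothelium were all well above background on every array. The summed level of a list is the log2 of the sum of its linear signals, so its brightest genes weigh most and changes of dimmer ones hardly enter it.

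Tight junctions ring the apex of epithelial cells, and the claudins in them set which ions and how much water pass between the cells. Each nephron segment carries its own set of claudins, while occludin and the ZO proteins, which tie the strand to actin, are widely shared. Cadherins hold neighbouring cells together through catenins at the adherens junction just below. Connexins form the channels of gap junctions, which join the cytoplasm of neighbouring cells in tubules, vessels and renin-producing cells. Ischemia is known to loosen tubular junctions in the kidney.

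The promoters of the Cldn4 and Cldn7 genes are shown because all arrays of the 3 groups with ischemia lay above Control for both genes, and because both windows hold the E-box CAGGTG that is known as a binding sequence of Snail factors. Both are RefSeq sequences of GRCm38.p6, running from 250 bases before to 50 bases after the start site, and 45 of the 67 members had an entry. Capitals mark CAGGTG or its reverse complement CACCTG, and TGANTCA, the AP-1 sequence, which reads the same on both strands. The 2 motifs did not overlap.
Cldn4, chr5:134946885-134947184, minus strand: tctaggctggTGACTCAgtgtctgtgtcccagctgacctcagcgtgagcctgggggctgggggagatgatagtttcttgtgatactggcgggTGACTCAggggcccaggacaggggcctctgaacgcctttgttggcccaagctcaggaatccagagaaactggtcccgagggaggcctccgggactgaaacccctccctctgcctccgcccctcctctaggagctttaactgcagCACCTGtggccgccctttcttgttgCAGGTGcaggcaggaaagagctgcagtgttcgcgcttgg
Cldn7, chr11:69965171-69965470, plus strand: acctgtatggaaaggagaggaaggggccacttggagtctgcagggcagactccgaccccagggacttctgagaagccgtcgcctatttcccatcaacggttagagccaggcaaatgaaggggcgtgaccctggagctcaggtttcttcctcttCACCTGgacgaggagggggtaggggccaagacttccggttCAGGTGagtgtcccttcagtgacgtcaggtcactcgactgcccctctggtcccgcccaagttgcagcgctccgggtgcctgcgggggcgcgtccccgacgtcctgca
In Cldn4 the E-box began 14 bases before the start site and again at base 12 after it, and TGANTCA began 240 and 158 bases before it. In Cldn7 the E-box began 97 and 57 bases before the start site, and a further RefSeq start of this gene, with the window chr11:69964529-69964828, held neither motif. CAGGTG was present in 20.2% of all 32851 promoters of the same length and in 17 of the 61 member promoters (27.9%), and TGANTCA in 7.8% and in 3 (4.9%). A match of these letters is a description of the window and not of binding.

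The array reads each gene through oligos of 60 bases, and a few are shown here because probes of 1 gene name did not move together or because they cross an intron. All positions are on mm9 as the array annotation gives them, and the capitals mark the whole oligo.
Cldn7, A_51_P165185, chr11:69780780-69781089, plus strand: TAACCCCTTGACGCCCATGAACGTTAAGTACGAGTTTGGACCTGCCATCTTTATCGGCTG
Ocln, A_52_P608097, chr13:101309849-101311042, minus strand: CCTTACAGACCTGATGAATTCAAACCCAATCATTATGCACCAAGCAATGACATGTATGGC
Cdh11, A_52_P683146, chr8:105191906-105191965, minus strand: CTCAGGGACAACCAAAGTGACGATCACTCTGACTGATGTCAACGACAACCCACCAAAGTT
Gja5, A_51_P333216, chr3:96854968-96855027, plus strand: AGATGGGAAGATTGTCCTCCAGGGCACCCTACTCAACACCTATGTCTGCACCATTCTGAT
The first 2 oligos span 310 and 1194 bases of the genome, so each is split by an intron and reads spliced RNA. The last 2 lie within 60 unbroken bases.

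After ischemia and reperfusion, genes of all 4 families moved in both directions. Of 39 members tested in IRI vs Control, 10 were higher and 9 lower in IRI (48.7%). The background over all 17725 genes tested was 50.7% called, 17% higher and 33.7% lower. Members had a median log2 fold change of 0.03, beside -0.17 over all genes. Cldn4, Cldn7, Cldn23, Ocln, Cdh1, Cdh3, Cdh5, Gja1 and Gjc1 were among the higher members, and the lower ones were Cldn9, Cldn10, Cldn18, Tjp3, Cdh15, Cdh20, Cdh24, Gja5 and Gjb2. The 4 arrays of each group did not overlap for 20 of the 39 members, against a background of 46.1% of genes, and any 1 such gene has p = 0.029 in a two-sided exact permutation test of 4 against 4 arrays, which can give no lower value.

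In IPC+IRI vs Control, 11 of 41 members tested were higher and 11 lower (53.7%), beside 55.8% of all genes called, 23.1% higher and 32.6% lower. In IPC+IRI vs IRI, 6 of 42 were higher and 9 lower (35.7%), beside 43.7%, which was 26% higher and 17.7% lower. In IRI+Hemin vs IRI, 10 of 41 were higher and 10 lower (48.8%), beside 44.1%, which was 26.1% higher and 18% lower. In Hemin vs Control, 7 of 41 were higher and 5 lower (29.3%), beside 36%, which was 18.4% higher and 17.6% lower. The median log2 fold changes of the members in these 4 comparisons were -0.12, 0.06, 0.03 and -0.03, beside -0.09, 0.09, 0.08 and 0.06 over all genes tested. Groups did not overlap for 14, 13, 15 and 15 members, against backgrounds of 45.1%, 37.9%, 38.9% and 37.6%. Claudins gave 10 of the 22 calls in IPC+IRI vs Control, with 6 of 16 tested higher and 4 lower, and 9 of the 20 in IRI+Hemin vs IRI, with 4 higher and 5 lower. Connexins gave 2 higher and none lower of 10 in IRI+Hemin vs IRI, and 1 higher and none lower of 8 in Hemin vs Control. IRI is shared by 3 of the 5 comparisons and Control by 3, so they are not independent of each other. Of all genes called, 33.5%, 41.5%, 59.5%, 59.2% and 51.2% were higher in the 5 comparisons in the order given above. Without normalization between arrays the medians of all genes were -0.05, 0.35, 0.41, 0.45 and 0.62, and 36.6%, 75.2%, 90.9%, 91.5% and 94.8% of calls were higher. Other settings that moved this share by over 10 points were normexp (56.4% in IRI vs Control, 49% in IPC+IRI vs IRI, 44.9% in IRI+Hemin vs IRI), the deposited log2 matrix (19.6%, 73.1% and 76.8% in the same 3), scaling on probes detected everywhere (35.1% in Hemin vs Control) and no filter on dim genes (45.8% in IRI+Hemin vs IRI, 39.7% in Hemin vs Control). The heat map of fold changes shows 42 of the 45 members tested in at least 1 comparison, and the 22 others were too dim in every group.

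**Figure D1:**
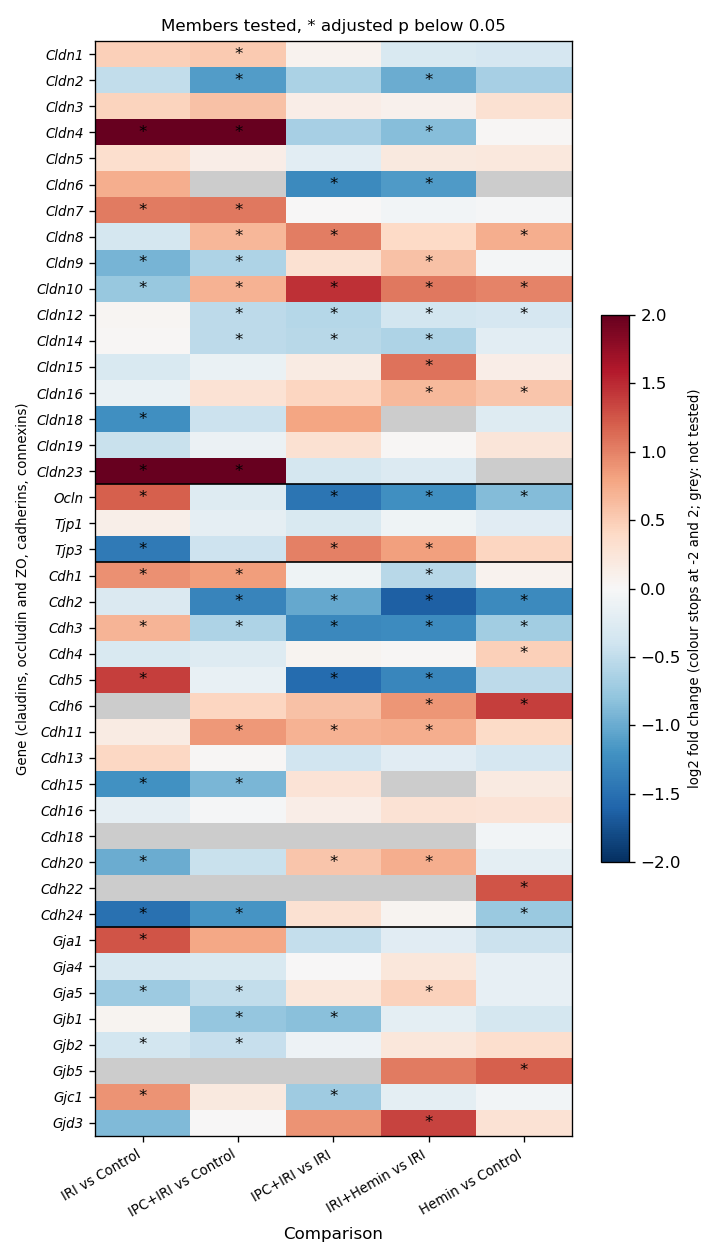
Log2 fold change (colour, from -2 to 2) of 42 members tested in at least 1 of the comparisons. Rows are genes in 4 blocks (claudins, occludin and ZO, cadherins, connexins), columns are the 5 comparisons, asterisks mark an adjusted p below 0.05 and grey marks genes not tested. Cldn4 rises by 2.96 in IRI vs Control and by 2.30 in IPC+IRI vs Control, and Cldn10 falls in the first comparison and rises in the other 4.

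Among the claudins of the distal nephron and collecting duct, Cldn4 and Cldn7 were higher in injured kidneys. Cldn4, a barrier claudin that takes part in chloride passage in the collecting duct, had a log2 expression of -1.83, -1.68, -1.53 and -1.71 in the Control arrays and of 0.70, 1.24, 1.42 and 1.73 in IRI. In IPC+IRI it was at 1.69, 0.41, 0.30 and 0.05, in IRI+Hemin at 0.94, 0.07, 0.09 and 0.57, and in Hemin at -2.07, -1.51, -1.35 and -1.73. Every array of the 3 injured groups lay above every array of the 2 uninjured groups. The rise over Control was 7.77-fold in IRI (log2 2.96, standard error 0.30, adjusted p = 5.93e-07) and 4.93-fold in IPC+IRI (log2 2.30, adjusted p = 7.74e-06). With Hemin before ischemia Cldn4 was lower than in IRI by 0.85 (adjusted p = 0.0278), with overlapping groups. This last call was lost without IRI replicate 3 (adjusted p = 0.064) or 4 (0.0875) and without IRI+Hemin replicate 2 (0.0776) or 3 (0.0753), and also without normalization between arrays (log2 -0.49, adjusted p = 0.262).

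Cldn7, found along the basolateral side of distal tubules and collecting ducts, was at 2.22, 2.54, 2.03 and 2.13 in Control and at 3.15, 3.1, 3.1 and 3.74 in IRI. The values were 3.53, 3.11, 3.27 and 3.20 in IPC+IRI and 3.28, 3.23, 3.15 and 3.20 in IRI+Hemin, all above the highest of Control and Hemin. Its rise was 2.06-fold in IRI (log2 1.04, standard error 0.14, adjusted p = 1.16e-05) and 2.07-fold in IPC+IRI. The difference of IRI+Hemin from IRI was not called. Of 4 principal cell markers of the collecting duct, 1 was higher and 1 lower in IRI than in Control. These were Aqp2, by 1.23, and Avpr2, at a log2 fold change of -1.68. The summed level of the 4 ran from 4.64 to 5.13 in Control, 5.04 to 5.64 in IRI and 5.15 to 5.89 in IPC+IRI. It ran from 5.33 to 5.75 in IRI+Hemin, where 2 were higher than in IRI and none lower, and from 5.11 to 5.54 in Hemin. In Hemin, Cldn4 and Cldn7 differed from Control by 0.02 and -0.03. Of 3 distal convoluted tubule markers, 1 was higher in IRI than in Control, and 2 were lower in IRI+Hemin than in IRI. Whether these markers have a part in the claudin values was not tested. In whole kidney, fewer cells of a type and less RNA per cell cannot be told apart.

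Cldn8, the partner of Cldn4 in the collecting duct, did not follow it. It was at 2.21 ± 0.27 in Control and 1.86 ± 0.19 in IRI (SD, n = 4 arrays each), a difference that was not called. It was higher in IPC+IRI, at 3.19, 3.26, 2.69 and 2.38, than in IRI, at 2.09, 1.82, 1.90 and 1.62, by 1.02 on the log2 scale (standard error 0.19, adjusted p = 0.000471). It was also higher in Hemin, at 3.13, 2.73, 2.93 and 2.93, than in Control by 0.72 (adjusted p = 0.0082). The groups did not overlap in either of these comparisons. Over Control it rose by 0.67 in IPC+IRI (adjusted p = 0.00697), with overlap. Collecting duct markers moved beside it. Of 4 principal cell markers, 3 were higher and 1 lower in IPC+IRI than in Control, 1 was higher in IPC+IRI than in IRI and 1 in Hemin than in Control, and their summed level ran from 5.15 to 5.89 in IPC+IRI and from 5.11 to 5.54 in Hemin, beside 4.64 to 5.13 in Control and 5.04 to 5.64 in IRI. All 3 intercalated cell markers were higher in IPC+IRI than in IRI, with summed levels from 4.91 to 5.36 and from 4.20 to 4.83, and none of them was called in Hemin vs Control. Their part in the Cldn8 values was not tested. Cldn3, another barrier claudin of the distal nephron, was not called in any comparison, with group means from 0.07 to 0.66.

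Cldn23 was not well above background on any Control or Hemin array and was so on all 12 arrays of the 3 injured groups. It was 5.31-fold higher in IRI than in Control (adjusted p = 0.000218) and 4.16-fold in IPC+IRI (adjusted p = 0.000728). Control was taken at the higher of the probe's own signal and the lowest signal well above background on the array. The probe's own signal was the higher on every Control array, so these folds are not lower bounds. Its arrays ran from -6.07 to -4.39 in Control, from -3.15 to -2.93 in IRI and from -4.66 to -2.17 in IPC+IRI, so that the last overlapped Control. The signals are low, and with normexp background correction the log2 fold changes were 0.55 (adjusted p = 0.0705) and 0.03 (adjusted p = 0.915).

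The pore-forming claudins of the proximal tubule and thick limb differed in direction. Cldn2, which forms the cation and water pore of the leaky proximal tubule, was at 4.48, 4.20, 4.64 and 4.82 in Control, at 4.16, 3.85, 4.10 and 4.06 in IRI and at 3.51, 3.23, 3.53 and 3.39 in IPC+IRI. All IPC+IRI arrays lay below all arrays of both other groups. It was lower in IPC+IRI than in Control by a factor of 2.17 (log2 -1.12, standard error 0.29, adjusted p = 0.00371), and its differences in IRI vs Control (-0.49) and IPC+IRI vs IRI (-0.63) were not called. IRI+Hemin was spread from 1.83 to 3.89, and its fall from IRI by 0.99 (adjusted p = 0.0118) was not called in the fit of these 8 arrays alone (adjusted p = 0.0779) or in the deposited log2 matrix (-0.78, adjusted p = 0.0647). Without IRI+Hemin replicate 2 the fall was -0.58 (adjusted p = 0.026). Without normalization between arrays neither call stood, with log2 fold changes of -0.68 (adjusted p = 0.168) and -0.62 (adjusted p = 0.222). The summed level of the 6 proximal tubule markers ran from 8.44 to 8.61 in Control, 8.02 to 8.50 in IRI, 7.67 to 8.09 in IRI+Hemin and 7.69 to 8.06 in IPC+IRI, and its part in the Cldn2 values was not tested.

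Cldn10, whose splice forms make an anion pore in the proximal tubule and a cation pore in the thick ascending limb, was called in all 5 comparisons. It was at 3.47, 4.31, 3.19 and 3.63 in Control and at 2.73, 2.95, 2.86 and 3.02 in IRI, lower in IRI by a factor of 1.70 (log2 -0.76, adjusted p = 0.00489). In IPC+IRI it was at 4.65, 4.26, 4.12 and 4.36, in IRI+Hemin at 3.98, 3.57, 3.76 and 4.47 and in Hemin at 4.74, 4.56, 4.71 and 4.54. All 12 of these arrays lay above all 4 of IRI. It rose over IRI by 1.46 with preconditioning (adjusted p = 4.3e-05) and by 1.06 with Hemin (adjusted p = 0.000575), over Control by 0.70 in IPC+IRI (adjusted p = 0.00782) and by 0.99 in Hemin (adjusted p = 0.00154). The 1 probe on this array does not tell the splice forms apart. Some markers of the same segments moved the same way: Kcnj1, a potassium channel of the thick limb, by -1.63 in IRI vs Control (adjusted p = 0.000118), 1.29 in IPC+IRI vs IRI (adjusted p = 0.00125) and 0.90 in IRI+Hemin vs IRI (adjusted p = 0.0139), and Slc5a12, a lactate transporter of the proximal tubule, by -1.67 (adjusted p = 1.13e-05), 1.02 (adjusted p = 0.00155) and 1.03 (adjusted p = 0.00135). Of the 5 thick limb markers, 1 was lower in IRI vs Control, 1 higher in IPC+IRI vs IRI and 2 higher in IRI+Hemin vs IRI. These 5 include the members Cldn16 and Cldn19, and 1 of the last 2 was Cldn16. Of the 6 proximal tubule markers, 3 were lower and none higher in the first of these comparisons, 2 higher and 2 lower in the next, and 2 higher and 1 lower in the last. In IPC+IRI vs Control, where Cldn10 was higher, Slc5a12 was lower (-0.65, adjusted p = 0.0197) and Kcnj1 was not called (-0.33), with none higher and 3 lower of the proximal tubule markers and none called of the thick limb ones. In Hemin vs Control none was higher and 1 lower of the proximal tubule markers, and 1 higher and none lower of the thick limb ones. The higher one was Cldn16 (0.55, adjusted p = 0.0391), itself a member. Their part in the Cldn10 values was not tested. None of the 5 calls was lost in an alternative that kept the threshold on the adjusted p alone.

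Cldn16 and Cldn19, which together let calcium and magnesium be taken up in the thick ascending limb, were not called in IRI vs Control. Cldn16 was at -1.06 ± 0.087 in Control and -1.20 ± 0.30 in IRI, and was higher in IRI+Hemin than in IRI by 0.65 (adjusted p = 0.0137) and in Hemin than in Control by 0.55 (adjusted p = 0.0391). The first of these was lost without IRI replicate 1 (adjusted p = 0.0555), and the second without Control replicate 1, 3 or 4 or Hemin replicate 1, 2 or 3, at adjusted p from 0.0638 to 0.0895. With normexp they were 0.27 (adjusted p = 0.139) and 0.29 (adjusted p = 0.145). Cldn19 had probes for 2 transcripts, and in IRI the one at chr4:118931858-118931917 went from -1.92 ± 0.31 to -2.85 ± 0.19 without overlap while the other went from -1.20 ± 0.25 to -1.41 ± 0.29. Cldn14, which restrains the calcium pathway of the thick limb, was lower in IPC+IRI and IRI+Hemin than in IRI by 0.56 and 0.61 (adjusted p = 0.037 and 0.0234), on levels of -2.19 ± 0.21 in IRI, and these stood at -0.24 (adjusted p = 0.485) and -0.25 (adjusted p = 0.455) without normalization between arrays. The first was lost without IRI replicate 2, 3 or 4 or IPC+IRI replicate 1 or 2 (adjusted p from 0.0546 to 0.121), and the second without IRI replicate 2 or 3 or IRI+Hemin replicate 1 or 3 (0.0503 to 0.0753). The summed level of the 5 thick limb markers, which include Cldn16 and Cldn19, ran from 7.84 to 8.22 in Control and from 7.61 to 8.02 in IRI.

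Cldn15, a cation pore best known in gut, was higher in IRI+Hemin (0.40, 0.60, 0.32 and 0.62) than in IRI (-0.20, -1.05, -0.60 and -0.55) by 1.08 (adjusted p = 0.000968), without overlap. Cldn12, which is linked to calcium uptake, was at 1.67 ± 0.12 in Control and 1.71 ± 0.15 in IRI and was lower in IPC+IRI than in IRI by 0.57 (adjusted p = 0.000208) and in IRI+Hemin by 0.37 (adjusted p = 0.00547). Without normalization between arrays these were -0.25 (adjusted p = 0.41) and 0.00 (adjusted p = 0.994), and the second was -0.24 (adjusted p = 0.137) with normexp. Cldn6, a claudin of the embryonic epithelium, was at -3.62 ± 0.21 in IRI and lower by 1.28 in IPC+IRI (adjusted p = 0.00263) and by 1.13 in IRI+Hemin (adjusted p = 0.006), both without overlap. Its probe was well above background on all 4 IRI arrays but on 2 of 4 in IPC+IRI and 3 of 4 in IRI+Hemin, so the sizes rest on groups near background. The latter difference was -0.77 (adjusted p = 0.095) without normalization between arrays and -0.88 (adjusted p = 0.0607) in the deposited log2 matrix. Cldn9 was lower in IRI than in Control by 0.93 (adjusted p = 0.00295). Cldn18, known from stomach and lung, was not well above background on any IRI array. Its log2 fold change in IRI vs Control was -1.22 (adjusted p = 0.00652), a size that rests on a group near background. With normexp it stood at 0.11 (adjusted p = 0.864). Cldn5, the claudin of endothelium, was not called in any comparison, with group means from 0.72 to 1.26. Cldn1, found in the parietal cells of the glomerular capsule, was higher in IPC+IRI than in Control by 0.53 (adjusted p = 0.0437), which was lost without Control replicate 1, 2 or 3 or IPC+IRI replicate 3 or 4 (adjusted p from 0.0653 to 0.151) and was 0.21 (adjusted p = 0.412) with normexp.

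**Figure D2:**
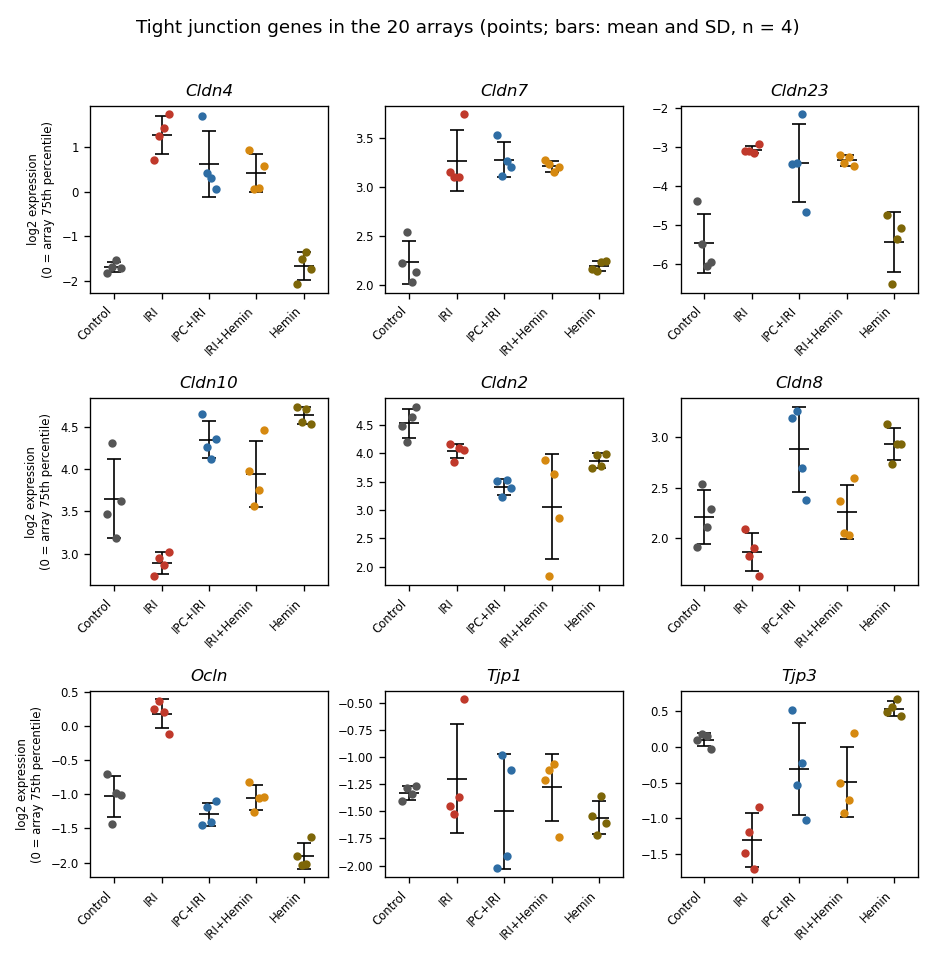
Log2 expression (0 is the 75th percentile of the array) of 9 tight junction genes in the 20 arrays. Points are arrays, bars are the mean and SD of the 4 arrays of a group, and each panel has its own scale. For Cldn4 and Cldn7 all arrays of the 3 injured groups lie above those of Control and Hemin, whereas for Ocln the IRI arrays alone, from -0.12 to 0.37, lie above all others.

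Occludin, the transmembrane protein that stabilizes the strand, was higher in IRI than in each of the groups it was compared with. Ocln was at -0.70, -1.43, -0.98 and -1.01 in Control and at 0.25, 0.37, 0.21 and -0.12 in IRI. It was at -1.45, -1.19, -1.41 and -1.10 in IPC+IRI, at -0.82, -1.26, -1.06 and -1.04 in IRI+Hemin, and at -1.90, -2.04, -2.02 and -1.63 in Hemin. The 4 IRI arrays lay above the other 16. The rise over Control was 2.30-fold (log2 1.20, standard error 0.15, adjusted p = 6.88e-06), and Ocln was lower than in IRI by 1.46 with preconditioning (adjusted p = 5.64e-06) and by 1.22 with Hemin (adjusted p = 1.62e-05). In Hemin vs Control it was lower by 0.87 (adjusted p = 0.000524), although as a mean of the log2 values of both probes this was -0.23 (adjusted p = 0.305). The call was also lost without normalization between arrays (-0.30, adjusted p = 0.356) and in the deposited log2 matrix (-1.29, adjusted p = 0.141). The values come mostly from 1 probe at chr13:101268114-101268173, since the intron-crossing oligo shown above was well above background on at most 3 arrays of any group. In the deposited log2 matrix the IRI vs Control difference was 0.53 (adjusted p = 0.532), and that with Hemin before ischemia -1.02 (adjusted p = 0.223). Marveld2 (tricellulin), its relative at the corners where 3 cells meet, was also higher in IRI than in Control, by 0.49 (adjusted p = 0.00335), and lower in IPC+IRI than in IRI, by 0.74 (adjusted p = 0.000189).

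The ZO proteins, scaffolds that link claudins and occludin to actin, differed among themselves. Tjp1 was not called in any comparison, with group means from -1.56 to -1.20. Tjp3 was at 0.10, 0.18, 0.15 and -0.03 in Control and at -1.49, -1.20, -1.71 and -0.84 in IRI, without overlap, and was lower in IRI by a factor of 2.66 (log2 -1.41, standard error 0.27, adjusted p = 0.000353). It was higher than in IRI by 1.00 in IPC+IRI (adjusted p = 0.0068) and by 0.82 in IRI+Hemin (adjusted p = 0.0212). The latter was lost without IRI replicate 1 (adjusted p = 0.0542) or 3 (0.0711) or IRI+Hemin replicate 4 (0.0831), and both were lost with normexp (0.49, adjusted p = 0.0953, and 0.41, adjusted p = 0.133).

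Cdh1, the E-cadherin of distal tubule and collecting duct, was higher in injured kidneys. It was at 3.11, 3.20, 3.07 and 3.17 in Control, 3.93, 4.29, 4.04 and 3.98 in IRI, 4.13, 3.94, 3.79 and 4.04 in IPC+IRI, 3.52, 3.51, 3.54 and 3.45 in IRI+Hemin, and 3.32, 3.05, 3.27 and 3.18 in Hemin. The groups formed 3 levels without overlap, with IRI and IPC+IRI on top, IRI+Hemin between, and Control and Hemin at the bottom. The rise over Control was 1.90-fold in IRI (log2 0.92, standard error 0.10, adjusted p = 1.01e-06) and 1.79-fold in IPC+IRI, and IRI+Hemin was lower than IRI by 0.56 (adjusted p = 0.000269). Of the 4 collecting duct markers, 1 was higher and 1 lower in IRI than in Control. In IRI+Hemin, where Cdh1 was lower than in IRI, 2 were higher than in IRI and none lower. Of 3 distal convoluted tubule markers, 1 was higher and none lower in the first comparison, and none higher and 2 lower in the second. The part of these markers in the Cdh1 values was not tested. The difference with ischemia was 0.92 without Hemin (IRI less Control) and 0.30 with it (IRI+Hemin less Hemin), and the test of their difference gave an interaction of -0.62 (standard error 0.14, adjusted p = 0.0104). Cdh1 was the 1 member of 45 called in the interaction, beside 7.77% of all genes, 5.84% higher and 1.94% lower. At an unadjusted p below 0.05, 4 members were higher and 2 lower in it. Without normalization between arrays the interaction was -0.82 (adjusted p = 0.277) and the difference of IRI+Hemin from IRI -0.19 (adjusted p = 0.538). With normexp the interaction was -0.63 (adjusted p = 0.232), and in the deposited log2 matrix -0.49 (adjusted p = 0.0724).

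Of the known repressors of Cdh1 among the Snail, Zeb and Twist factors, 4 of 6 were tested in IRI vs Control, with none higher and 1 lower. Snai2 was lower in IRI by 1.08 (adjusted p = 0.00118) and in IPC+IRI by 1.13 (adjusted p = 0.000711), and Snai1 was at -3.25 ± 0.83 in Control and -2.54 ± 0.51 in IRI. Of 11 catenins and nectins tested in IRI vs Control, 4 were higher and 2 lower. Among the catenins, which link cadherins to the cell interior, Arvcf was lower in IRI by 1.47 (adjusted p = 2.13e-05), Ctnna1 was higher in IRI by 0.49 (adjusted p = 0.000177) and Jup by 0.90 (adjusted p = 0.000814), and Ctnnb1 was not called.

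Cdh16, the kidney-specific cadherin of the tubule, was not called in any comparison. Its arrays lay at 6.98, 7.14, 7.01 and 6.84 in Control and at 6.85, 7.06, 6.93 and 6.44 in IRI, which overlap, and its group means ran from 6.82 to 7.26.

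Cdh5, the VE-cadherin of endothelial junctions, was higher in IRI than in the groups set against it. It was at -0.21, -0.36, -0.12 and 0.31 in Control, 1.43, 1.10, 1.47 and 1.19 in IRI, -1.08, 0.27, -0.23 and 0.07 in IPC+IRI, 0.16, 0.51, 0.06 and -0.72 in IRI+Hemin, and -0.63, -1.06, -0.51 and -0.28 in Hemin. The 4 IRI arrays lay above all 16 others. The rise over Control was 2.63-fold (log2 1.39, standard error 0.28, adjusted p = 0.000454). Cdh5 was lower than in IRI by 1.54 in IPC+IRI (adjusted p = 0.000306) and by 1.30 in IRI+Hemin (adjusted p = 0.00117), the latter at -0.93 (adjusted p = 0.0663) without normalization between arrays. Both of its probes moved alike, from -1.12 to 0.49 and from 0.49 to 1.81 in the means of Control and IRI. Of 6 endothelial markers, none was higher and 2 were lower in IRI, Tek and Kdr, and the summed level of all 6 ran from 3.61 to 3.93 in Control and from 3.59 to 4.02 in IRI. Against IRI, none was higher and 3 were lower in IPC+IRI, and 3 were higher and none lower in IRI+Hemin. Esam, a further adhesion molecule of endothelial junctions, was higher in IRI by 1.08 (adjusted p = 6.83e-06), and was at 1.06 ± 0.25 in IPC+IRI and 0.95 ± 0.087 in IRI+Hemin beside 1.06 ± 0.10 in IRI.

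Cdh3 and Cdh2 were lower in IPC+IRI and in IRI+Hemin than in IRI. Cdh3, the P-cadherin, was at -1.97, -2.89, -2.01 and -2.13 in Control, -1.78, -1.21, -1.44 and -1.82 in IRI, -2.34, -3.41, -2.59 and -3.06 in IPC+IRI and -2.71, -2.77, -2.74 and -3.08 in IRI+Hemin. The arrays of both groups lay below all IRI arrays, by 1.29 (adjusted p = 0.000386) and 1.26 (adjusted p = 0.000447) in their means. Its rise of 0.68 in IRI over Control (adjusted p = 0.0228) was lost without Control replicate 2 (adjusted p = 0.0927) or IRI replicate 2 (0.0746) or 3 (0.0538). Its falls from Control, by 0.61 in IPC+IRI and by 0.69 in Hemin, were each lost without any of 5 single arrays. These were Control replicate 1, 3 or 4 in both, with IPC+IRI replicate 2 or 4 (adjusted p from 0.0834 to 0.144) or Hemin replicate 1 or 3 (0.0689 to 0.0978). Without normalization between arrays they were -0.17 (adjusted p = 0.673) and -0.12 (adjusted p = 0.745).

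Cdh2, the N-cadherin that the proximal tubule uses in place of E-cadherin, was at -3.44 ± 0.42 in Control and -3.73 ± 0.37 in IRI. It was at -4.27, -4.99, -4.72 and -5.07 in IPC+IRI, -5.39, -5.29, -5.14 and -5.64 in IRI+Hemin and -4.71, -4.87, -4.73 and -4.52 in Hemin, all below every Control and IRI array. It fell from Control by 1.32 in IPC+IRI (adjusted p = 7.36e-05) and by 1.27 in Hemin (adjusted p = 0.000427), and from IRI by 1.03 in IPC+IRI (adjusted p = 0.00112) and by 1.63 in IRI+Hemin (adjusted p = 2.6e-05). Only 1 of its 3 probes was well above background, on 3 of 4 arrays in IRI+Hemin and on all 4 of each other group, and the falls from Control were -0.48 (adjusted p = 0.0978) and -0.59 (adjusted p = 0.0624) with normexp. Without normalization between arrays the fall from IRI in IPC+IRI was -0.71 (adjusted p = 0.0698) and that from Control in Hemin -0.70 (adjusted p = 0.0594). The 3 groups with lower values are also those scanned on later days, and scan day and group cannot be told apart here. Of 6 proximal tubule markers, none was higher and 3 lower in IPC+IRI vs Control, and none and 1 in Hemin vs Control. In IPC+IRI vs IRI, 2 were higher and 2 lower, and in IRI+Hemin vs IRI, 2 and 1. Slc34a1 was among the lower ones each time. The part of these markers in the Cdh2 values was not tested.

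Cdh24, a classical-type cadherin, was at -1.98, -2.27, -2.79 and -2.64 in Control and at -4.17, -3.71, -3.85 and -3.92 in IRI. It was lower in IRI by a factor of 2.81 (log2 -1.49, adjusted p = 8.74e-06) and in IPC+IRI by a factor of 2.27, but with normexp these were -0.18 (adjusted p = 0.69) and -0.56 (adjusted p = 0.058). The brighter of its 2 probes, from a cDNA at chr14:55251554-55251613 (-1.70 ± 0.39 in Control, -3.18 ± 0.32 in IRI), lies on the plus strand, opposite the probe of the reference transcript at chr14:55252332-55252391 (-3.96 ± 0.33 and -5.60 ± 0.56), which was well above background on 0 of 4 IRI arrays. The values of Cdh24 rest mostly on the plus-strand probe. Cdh11, a cadherin of mesenchyme, was called higher by 0.87 in IPC+IRI than in Control (adjusted p = 0.000226), and than in IRI by 0.70 in IPC+IRI (adjusted p = 0.00239) and by 0.72 in IRI+Hemin (adjusted p = 0.00176). In the deposited log2 matrix the 3 were not called (0.39, 0.88 and 1.26, adjusted p = 0.601, 0.229 and 0.0825). With normexp the last 2 were 0.23 (adjusted p = 0.194) and 0.20 (adjusted p = 0.249), and as a mean of log2 values the first and last were 0.54 (adjusted p = 0.0648) and 0.46 (adjusted p = 0.134). The means of all 3 probes lay above those of IRI, by 1.74, 0.99 and 0.48 in IPC+IRI and by 0.23, 0.35 and 0.80 in IRI+Hemin, and from Control to IPC+IRI they differed by 0.43, -0.02 and 1.21. They went in opposite directions in IRI vs Control, which was not called (0.17, adjusted p = 0.39). From Control to IRI the probe shown above went from -1.06 ± 0.30 to -0.32 ± 0.22, and the others, at chr8:105157473-105157532 and chr8:105157896-105157955, from -2.76 ± 0.35 to -4.08 ± 0.25 and from -2.14 ± 0.44 to -3.15 ± 0.20. For each of the 3, Control and IRI did not overlap. The summed level of 3 fibroblast markers ran from 1.25 to 2.17 in Control, 0.85 to 1.83 in IRI, 2.06 to 3.12 in IRI+Hemin and 0.92 to 3.28 in IPC+IRI. Cdh6, a cadherin of the developing proximal tubule, was higher in Hemin (-3.39 ± 0.094) than in Control (-4.77 ± 0.25) by 1.39 (adjusted p = 0.0012), at -0.01 (adjusted p = 0.98) with normexp. Its probe was well above background on 1 of 4 Control arrays and all 4 of Hemin, so the size of this difference rests on a group near background. Cdh13, a cadherin without a cytoplasmic tail, was not called in any comparison.

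**Figure D3:**
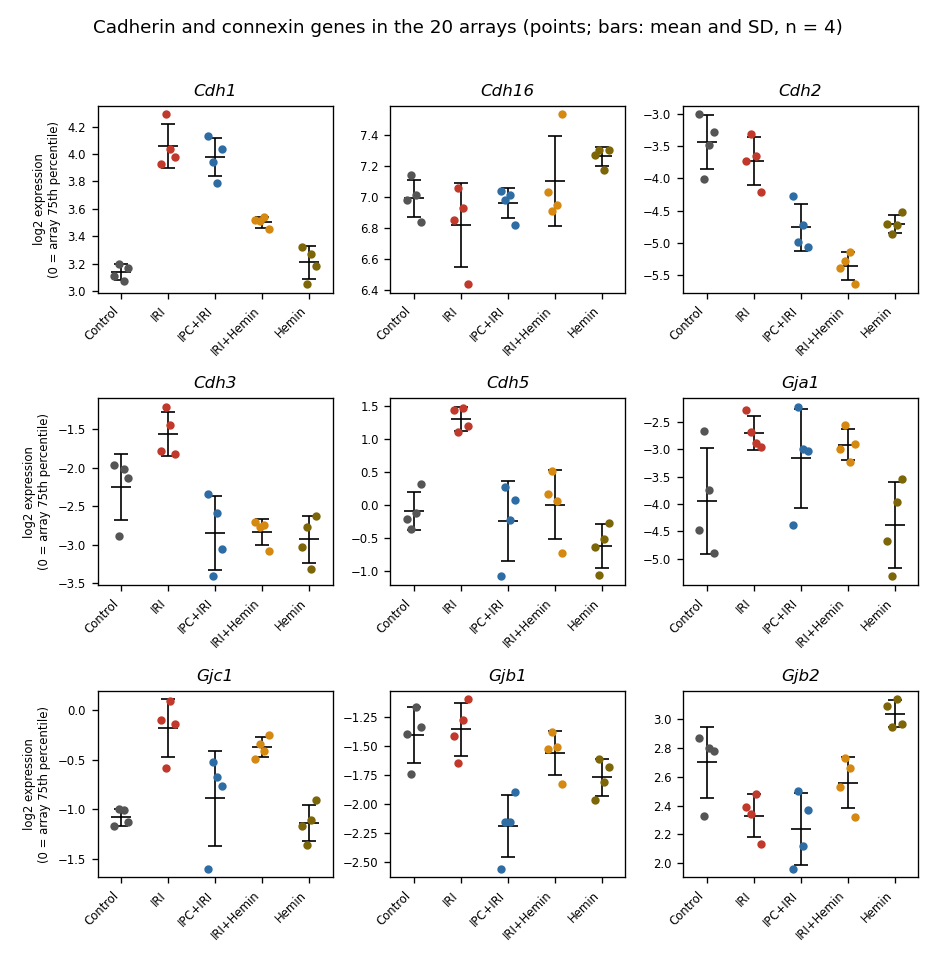
Log2 expression (0 is the 75th percentile of the array) of 5 cadherin and 4 connexin genes in the 20 arrays. Points are arrays, bars are the mean and SD of the 4 arrays of a group, and each panel has its own scale. Cdh1 forms 3 levels, with IRI+Hemin between IRI and Control, Cdh5 is higher in IRI alone, and Cdh16 stays between 6.44 and 7.53.

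Of 7 connexins tested in IRI vs Control, 2 were higher and 2 lower (57.1%), beside 50.7% of all genes called. Gjc1, a connexin of vascular smooth muscle and mesangium, was at -1.17, -1, -1.01 and -1.13 in Control and at -0.10, -0.58, 0.09 and -0.14 in IRI, without overlap, and higher by 0.90 (standard error 0.19, adjusted p = 0.000701). It was lower in IPC+IRI than in IRI by 0.71 (adjusted p = 0.00562), with overlapping groups, and at -0.39 (adjusted p = 0.287) without normalization between arrays and -0.50 (adjusted p = 0.0633) in the deposited log2 matrix. Of 5 markers of smooth muscle, mesangium and pericytes, Acta2 and Tagln were higher in IRI, and the summed level ran from 4.22 to 4.67 in Control and from 4.52 to 5 in IRI. In IPC+IRI vs IRI, where Gjc1 was lower, Acta2 (-0.66, adjusted p = 0.00025) and Tagln (-0.87, adjusted p = 0.00015) were lower too, and the summed level in IPC+IRI ran from 3.89 to 4.5. In IRI+Hemin vs IRI both were lower as well (-0.85, adjusted p = 3.08e-05, and -0.80, adjusted p = 0.000285), while Gjc1 was not called (-0.19, adjusted p = 0.435). Their part in the Gjc1 values was not tested. Gja1, a widely expressed connexin, was higher by 1.25 (adjusted p = 0.0337), with Control spread from -4.89 to -2.67. It was lost without Control replicate 1 (adjusted p = 0.093) or 4 (0.121) or IRI replicate 1 (0.0867) or 2 (0.0594), and was 0.43 (adjusted p = 0.209) with normexp.

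Gja5, the connexin of renin-producing cells and arterial endothelium, was called lower by 0.72 in IRI (adjusted p = 0.00031) and by 0.49 in IPC+IRI (adjusted p = 0.00515) than in Control, and these were -0.21 (adjusted p = 0.464) and -0.32 (adjusted p = 0.142) with normexp, -0.60 (adjusted p = 0.0585) and -0.06 (adjusted p = 0.862) without normalization between arrays, and -0.18 (adjusted p = 0.339) and 0.19 (adjusted p = 0.273) with the brightest probe. Of its 4 probes, all averaged in these calls, the 2 from its reference transcript lie at chr3:96854968-96855027 and chr3:96857349-96857408. The other 2, from a cDNA of the same name, lie far from these, at chr3:98214966-98215025 and chr3:98215672-98215731, and are not shown to read Gja5 RNA. The first of this pair is the brightest probe. The reference probes differed from Control by -1.1 and -1.28 in IRI and by -1.39 and -1.75 in IPC+IRI, without overlap. The cDNA probes differed by -0.18 and -1.45 in IRI and by 0.19 and -0.26 in IPC+IRI, with overlap except for -1.45. The probes of the reference transcript alone gave -1.23 in IRI (adjusted p = 3.73e-05) and -1.65 in IPC+IRI (adjusted p = 1.82e-06), an alternative chosen after the data were seen. The call of a rise in IRI+Hemin over IRI, by 0.46, became -0.25 (adjusted p = 0.289) in these probes. Gja4, its partner in endothelium, was not called in any comparison.

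**Figure D4:**
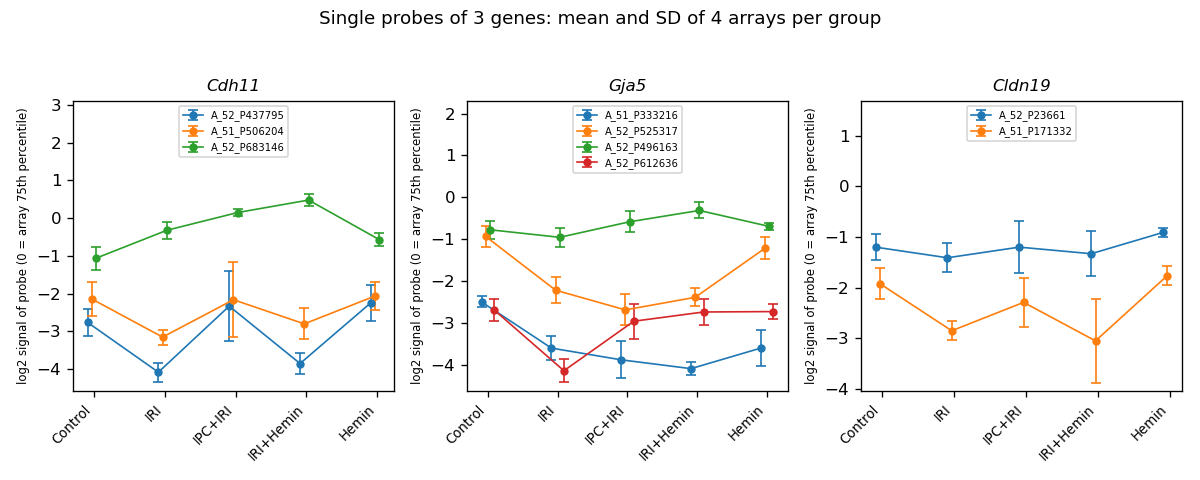
Log2 signal of the single probes of Cdh11, Gja5 and Cldn19 (0 is the 75th percentile of the array). Points and bars are the mean and SD of the 4 arrays of a group, and lines join the same probe across groups. From Control to IRI, 1 probe of Cdh11 goes from -1.06 to -0.32 while the other 2 go down, and 1 probe of Cldn19 goes from -1.92 to -2.85 and the other from -1.20 to -1.41.

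Gjb1 and Gjb2, connexins of the beta group, were lower in IPC+IRI than in Control. Gjb1, a connexin best known from liver that tubules also use, was at -1.40, -1.74, -1.17 and -1.34 in Control, -1.42, -1.65, -1.28 and -1.10 in IRI and -2.56, -2.16, -2.16 and -1.90 in IPC+IRI, where every array lay below both other groups. It was lower in IPC+IRI than in IRI by 0.83 (adjusted p = 0.000491) and than in Control by 0.78 (adjusted p = 0.000458), at -0.51 (adjusted p = 0.197) and -0.34 (adjusted p = 0.377) without normalization between arrays. Gjb2, known from the inner ear and from tubules, was lower than in Control by 0.36 in IRI (adjusted p = 0.0379) and by 0.46 in IPC+IRI (adjusted p = 0.00969). The first was lost without Control replicate 1, 3 or 4 or IRI replicate 1, 2 or 4 (adjusted p from 0.0536 to 0.109), and without normalization the 2 were -0.24 (adjusted p = 0.581) and -0.02 (adjusted p = 0.955).

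Gjb5, a connexin best known from skin, was not well above background on any Control array. It was 2.30-fold higher in Hemin than in Control (adjusted p = 0.0477), a size that rests on a group near background. The call was lost when any of 7 of the 8 arrays was left out, all but Control replicate 1 (adjusted p from 0.0588 to 0.129). The log2 fold change was -0.24 with normexp. Gjd3 was not well above background in IRI and 2.55-fold higher in IRI+Hemin (adjusted p = 0.0111), at -0.35 (adjusted p = 0.266) with normexp. The size of this difference too rests on a group near background.

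Genes of the other junctions were listed beside the members. Of 42 tested in IRI vs Control, 16 were higher and 8 lower (57.1%), beside the 50.7% of all genes, with a median of 0.37. Desmosomes, which join the keratin of neighbouring cells, had 5 of 6 genes higher and 1 lower. Pkp3 went from 1.73 ± 0.10 in Control to 3.84 ± 0.15 in IRI (log2 2.12, adjusted p = 5.29e-09), Ppl by 2.10 (adjusted p = 0.000106) and Dsp by 1.30 (adjusted p = 5.16e-05), while Dsc2 was lower by 0.85. Of 20 partners of the tight junction, 7 were higher and 4 lower, among them Cxadr, a receptor at the junction, higher by 1.10 (adjusted p = 3.72e-05), and Pard6b, a polarity protein, by 0.93 (adjusted p = 6.65e-05). Of 11 catenins, nectins and related genes tested, 4 were higher and 2 lower. The pannexin tested, 1 of 3 listed, was not called. The desmosomal Pkp3 was also higher in IPC+IRI than in Control by 1.78 (adjusted p = 3.88e-08), and neither IPC+IRI nor IRI+Hemin was called against IRI for it.

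Markers of cell types were also set beside the members in IRI vs Control. None was higher and 3 of 6 were lower for proximal tubule, none and 1 of 5 for thick ascending limb, 1 and none of 3 for distal convoluted tubule, 1 and 1 of 4 for collecting duct, none and 2 of 3 for intercalated cells, none and 2 of 4 for podocytes, and none and 1 of 3 for fibroblasts. Of 6 leukocyte markers tested, 3 were higher and none lower, and 1 of 2 markers of injured tubule was higher. The summed level of both injury markers ran from 0.55 to 0.78 in Control, 2.12 to 2.64 in IRI, 0.50 to 1.82 in IRI+Hemin, 1.29 to 2.98 in IPC+IRI and -0.54 to 0.42 in Hemin. That of all 7 leukocyte markers ran from 0.66 to 1.01 in Control, 2.34 to 3.32 in IRI, 1.96 to 3.54 in IRI+Hemin, 2.93 to 4.41 in IPC+IRI and 0.86 to 1.53 in Hemin. Their part in the junction genes was not tested.

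The 22 members tested in no comparison were 4 claudins, 9 cadherins and 9 connexins. They included Cldn11, Cldn13 and Cldn17, Cdh10, Cdh17 and Cdh26, and Gja3, Gja10, Gjb6 and Gjd2. Of all 67 members, 31 were well above background on all 20 arrays, 25 on some and 11 on none.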

How the data were processed

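Total RNA of whole kidneys was hybridised to 20 Agilent 1-colour arrays, 1 a sample. The authors deposited the scanner output, made with Feature Extraction 9.5.3.1 on a probe annotation of mm9. The deposited intensity used, the processed signal, had been corrected for background within each array by that software, per the file headers, and the authors did not normalize it between arrays. The authors also deposited a log2 matrix, which held the log2 of the same signal without normalization (100% of 33598 single-spot probes within 0.001), with 18.1% of values blank, and served as an alternative.

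Control spots and spots marked as non-uniform or as population outliers were left out (53 to 165 an array), saturated spots were kept, and probes were means of their spots. Signals were scaled to the 75th percentile of the array, and a gene was the log2 of the mean over its probes. Genes well above background on at least 3 of 4 arrays of either group, with at most 1 missing array, were tested with limma 3.58.1 (R 4.3.3) in a fit of 5 group means over 20 arrays, leaving 15 residual degrees of freedom. Benjamini-Hochberg adjustment ran over all genes tested in a comparison. A group not well above background on any array was taken, for the fold, at its own signal or at a floor, whichever was higher. The floor was the lowest signal well above background on the array. Such folds are not lower bounds. In a test on simulated data for IRI vs Control with 17725 genes, 76% of changes of 1 and 98% of changes of 2 on the log2 scale were recovered. The number of arrays limits the precision.

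Members, gene lists and tests were chosen with earlier results of these data known. Named genes were those with a known place in kidney junctions and, in each comparison, the 3 called members that rose most and the 3 that fell most, among those whose groups did not overlap and which were well above background throughout the higher group. Cldn9, Cdh15 and Cdh20 were named after their values were seen. Results of 3 members are not reported here, though the counts of members include them. Lists of 11 cell types and of other junction genes were set beside them. The alternatives were normexp background correction (offset 50), other or no scaling, quantile normalization, other probe summaries, the deposited matrix, other filters, the compared arrays alone, a replicate block, fold cutoffs of 2 to 4 beside the adjusted p, and leaving out each array. The fold cutoffs were 3 for rises and 2 for falls in IRI vs Control and in IRI+Hemin vs IRI. They were 4 and 2 in IPC+IRI vs Control, and 3 both ways in IPC+IRI vs IRI and Hemin vs Control. Rises thus met a stricter cutoff than falls in some comparisons. The test of the published study, SAM, was not run. Slide as a random block could not be fitted, since each group lay on 1 slide.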

Additional observations from a re-analysis of the deposited data

Results flagged for a closer look

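Within the groups of 4 arrays, 9 of 185 sets of values tested had 1 array far from the other 3, with a gap over 0.829 of the whole range (Dixon's test at 95%). Chance gives about 1 in 20 such sets. IRI replicate 4 was the array in 3 of them. It was at 3.74 for Cldn7 (others 3.1 to 3.15), -0.47 for Tjp1 (others -1.53 to -1.37) and -4.80 for Gjb5 (others -6.55 to -6.43).

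In Control, replicate 1 was at -1.28 for Cdh13 (others -2.12 to -2.04) and -0.11 for Gja4 (others -0.44 to -0.40), and replicate 2 at 2.33 for Gjb2 (others 2.78 to 2.87). In IRI+Hemin, Cldn12 was at 1.25 in replicate 3 (others 1.37 to 1.39) and Cldn16 at -1.13 in replicate 2 (others -0.42 to -0.29). In Hemin, Cdh11 was at -1.12 in replicate 3 (others -1.53 to -1.47).

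The change of Cdh1 with ischemia differed between mice with and without Hemin, with an interaction of -0.62 (limma, adjusted p = 0.0104). IRI+Hemin and Hemin were scanned on days other than that of Control and IRI, and scan day and Hemin cannot be told apart.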

How the results depend on the processing

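Of 75 calls of named genes, 24 were kept in every alternative except the fold cutoffs, among them Cldn4, Cldn7, Cldn10, Cdh1, Cdh5, Gjc1 and Tjp3 in IRI vs Control. Of the 51 others, 30 were lost with normexp, 27 without normalization between arrays, 19 in the deposited matrix and 16 when 1 array was left out. The cause was not tested. Signal over background limits the dim members, such as Cldn23, Gjb5 and Gjd3.

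The counts of members called higher or lower moved by over 1.5 times as follows. In IRI vs Control (10 higher, 9 lower), the deposited matrix gave 4 higher, fold cutoffs 2 higher and 4 lower, and normexp 3 lower. In IPC+IRI vs Control (11 and 11), higher calls were 7 with normexp, 4 in the matrix and 4 with fold cutoffs, and lower calls 4 with normexp, 2 without normalization, 7 with quantile normalization, 22 with no filter and 3 with fold cutoffs. In IPC+IRI vs IRI (6 and 9), they were 13 higher and 4 lower without normalization, 3 higher in the matrix, and 0 and 0 with fold cutoffs. In IRI+Hemin vs IRI (10 and 10), they were 6 higher with normexp, 3 lower without normalization, 4 lower in the matrix, and 0 higher and 5 lower with fold cutoffs. In Hemin vs Control (7 and 5), they were 2 higher and 3 lower with normexp, 19 and 0 without normalization, 3 and 1 in the matrix, 0 and 0 with fold cutoffs, 3 higher with scaling on detected probes, 4 higher with all arrays above background, and 8 lower with no filter. In the interaction (0 and 1), higher calls were 3 with scaling on detected probes, 1 with the brightest probe, 3 with the mean of log2 values and 3 with the compared arrays alone, and lower calls 0 with normexp, without normalization and in the matrix.

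With 1 array left out, the counts higher and lower ran from 8 to 11 and 7 to 9 in IRI vs Control, 10 to 13 and 8 to 11 in IPC+IRI vs Control, 4 to 8 and 8 to 10 in IPC+IRI vs IRI, 6 to 12 and 8 to 10 in IRI+Hemin vs IRI, 4 to 6 and 4 to 6 in Hemin vs Control, and 0 to 3 and 1 to 1 in the interaction. The low of 6 came without IRI replicate 1.

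Calls of named genes that turned their sign did so with normexp for Cldn18 in IRI vs Control (0.11), Cdh6 (-0.44) and Gjd3 (-0.35) in IRI+Hemin vs IRI, and Cdh22 (-0.24), Cdh6 (-0.01) and Gjb5 (-0.24) in Hemin vs Control. Gja5 in IPC+IRI vs Control turned with the brightest probe (0.19), Cldn12 in Hemin vs Control without normalization (0.24), and Gja5 in IRI+Hemin vs IRI with the probes of the reference transcript alone (-0.25), a setting chosen after the data were seen. The median of all genes tested was 0.02, -0.15, -0.17, -0.20 and -0.12 with normexp in the 5 comparisons, and -0.33, -0.12, 0.20, 0.24 and 0.11 in the matrix.

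Samples of the same number did not deviate together (r from -0.30 to 0.20, with 4 of 20 closest to their own number). No pairing by number was found, but this check between arrays of different slides cannot exclude one. With the replicate number as a block, 11 members were higher and 8 lower in IRI vs Control, 11 and 9 in IPC+IRI vs Control, 7 and 8 in IPC+IRI vs IRI, 9 and 10 in IRI+Hemin vs IRI, 5 and 5 in Hemin vs Control, and 0 and 1 in the interaction.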
